A study of Homo sapiens with 16 samples.

Results

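The HOX cluster genes are the 39 homeobox genes that lie side by side in the 4 clusters HOXA, HOXB, HOXC and HOXD. They were taken here as every non-control probe on the array whose gene name was HOXA, HOXB, HOXC or HOXD followed by a number and nothing else. This gave 47 probes for 39 genes, out of 58201 non-control probes: 16 probes for 11 HOXA genes, 12 for 10 HOXB genes, 9 for 9 HOXC genes and 10 for 9 HOXD genes. The probes are 60-mers, and 36 of them, for 30 genes, passed the filter on dim spots (4 or more of the 16 arrays well above background, by the scanner software's own mark) and entered the tests. RNA was measured in 16HBE cells, a human bronchial epithelial line immortalised with the SV40 large T antigen. Parental cells with wild-type MET (16HBE-WT) were set against 16HBE-ex14 clone F, in which CRISPR/Cas9 editing made the MET transcript skip exon 14. All cells of the 4 conditions were serum-starved for 2 h, and then either left without ligand (16HBE-WT and 16HBE-ex14) or given 20 ng/ml of HGF, the ligand of MET, for 24 h (16HBE-WT+HGF and 16HBE-ex14+HGF). The titles of the parental samples with HGF read YY where the others read WT, and their group was taken from their genotype and description. Each condition had 4 arrays, from cultures a week apart, and the files do not say which array is from which week. The 16HBE-ex14 cells are 1 clone, grown out by limiting dilution after puromycin selection, so the exon 14 change and other features of that clone cannot be told apart.

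HOX genes code for transcription factors that bind DNA through the homeodomain and give cells along the body axis their positional identity. Genes at the same place in different clusters are paralogs and carry the same number, from anterior (low) to posterior (high). Adult epithelial cells commonly keep a region-specific set of these genes switched on, while the others are kept silent by Polycomb complexes. In the lung the anterior and middle HOX genes are the best known, HOXA5 and HOXB5 among them for the branching of the airways.

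Levels are given as log2 processed signal minus the array's 75th percentile of it over all non-control spots, so 0 equals that percentile and the lowest signal still well above background was -4.4 (median over the 16 arrays). Probes bind with different strength, so the level of a probe says nothing about one gene against another and differences are given for the same probe between conditions. A probe was "called" in a comparison when limma's adjusted p, over all 34599 tested probes, was below 0.05 and the fold change was over 1.5. The p-values measure the spread among these cultures of the same cells.

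The arrays of a condition correlated with each other at 0.983 to 0.992, and between 49 and 60.3% of all probes were well above background on an array. The 75th percentile itself had a median intensity of 172 for the parental cells and 178 with HGF, and of 232 for the clone and 215 with HGF. All 8 bronchial epithelial markers looked at, among them EPCAM, KRT8 and KRT18, were well above background on all 16 arrays. KRT5 was lower in 16HBE-ex14, with a log2 difference of -2.57 without HGF (adjusted p = 6.29e-07) and -4.26 with it (adjusted p = 3.26e-09). With HGF it fell in 16HBE-ex14 by a difference of -2.32 (adjusted p = 0.000147). Of the 6 fibroblast markers, COL1A1 and PDGFRB were well above background on all 16 arrays, LUM on 8, and COL1A2, COL3A1 and DCN on none. The arrays of LUM were all of the parental cells, with a mean level of -2.94 without and -3.52 with HGF. In 16HBE-ex14 cells its signal was not well above background, which gives only an upper bound. Since LUM passed the filter on dim spots only through parental arrays, its fitted differences are no independent test and are not given. Of the endothelial markers, CDH5 and VWF were well above background on all 16 and PECAM1 and KDR on none. The leukocyte markers PTPRC and CD3E were well above background on all 16, and CD3E was lower in 16HBE-ex14 without HGF (-0.98, adjusted p = 0.0242). The summed scaled signal of the 6 fibroblast markers was 0.547 to 1.04 in 16HBE-WT and 0.324 to 0.508 in 16HBE-ex14. That of the epithelial markers was 1750 to 2240 over all conditions. That of the endothelial markers was 0.269 to 0.608 and that of the leukocyte markers 0.277 to 0.746. The lists rest on different probes, so these sums can be compared between conditions but not between lists, and give no share of cell types. The part of these markers in the HOX results was not tested. The single MET probe, at chr7:116438290-116438349 and so downstream of exon 14, does not check the exon skipping; it stood at 4.97 ± 0.17 in 16HBE-WT and 5.1 ± 0.15 in 16HBE-ex14 (SD, n = 4).

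Most HOX probes lie outside the homeobox, but that of HOXC12, the gene with the largest genotype difference among the tested HOX genes, lies in it. It is shown with the probes of HOXC10 and HOXB2 (the dimmer of the 2 HOXB2 probes), which cover the same part of the homeobox, because the 3 genes gave different results below. Capitals mark the 5 codons of the DNA-recognition helix that end in its invariant tryptophan. The sequences are those of the array's annotation, 5′ to 3′.
HOXC12: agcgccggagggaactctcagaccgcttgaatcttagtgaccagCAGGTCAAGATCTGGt
HOXC10: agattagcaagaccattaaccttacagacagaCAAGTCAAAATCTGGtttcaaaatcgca
HOXB2: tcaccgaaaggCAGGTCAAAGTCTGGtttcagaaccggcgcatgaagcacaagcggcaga
The HOXC12 probe lies on chr12:54350226-54350285, the HOXC10 probe on chr12:54383100-54383159 and the HOXB2 probe on chr17:46620897-46620956 (hg19, the build named in the array files). Laid against each other without gaps over at least 30 bases, the HOXC10 and HOXB2 probes were identical at 74.4% of the bases, the highest share for any pair of HOX probes of different genes together with that of HOXA9 and HOXC5.

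The closest relative of the HOXC12 probe among the HOX probes was that of its paralog HOXD12. Both are shown because HOXC12 was measured on every array and HOXD12 on almost none. Capitals mark the bases that are identical in the 37 that line up, 22 of them (59.5%).
HOXC12: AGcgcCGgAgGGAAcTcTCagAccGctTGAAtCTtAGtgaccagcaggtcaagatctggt
HOXD12: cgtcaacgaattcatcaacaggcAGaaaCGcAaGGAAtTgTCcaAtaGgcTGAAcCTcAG
The HOXD12 probe, on chr2:176965341-176965400, was well above background on 1 of 16 arrays, one of 16HBE-ex14+HGF.

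Detection came first, since it decides which genes can be compared. HOXA, HOXB and HOXC gave signal across nearly their whole length, and most of HOXD did not rise well above background. Of the 11 HOXA genes 9 were well above background on all 16 arrays, of the 10 HOXB genes 8, of the 9 HOXC genes 7, and of the 9 HOXD genes none. Of all non-control probes 43.2% were well above background on all 16 arrays and 30.7% on none. Of the HOX probes 63.8% were well above background on all 16.

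Along HOXB, the anterior-most member HOXB1, known for patterning the hindbrain early in development, was well above background on no array. HOXA2, known for patterning the second pharyngeal arch, and its paralog HOXB2 were well above background on all 16. At the posterior end, HOXA13, a gene of the distal limb and the urogenital tract, was well above background on 15 of 16 arrays and HOXB13, known for its role in the prostate, on all 16. HOXC5 reached 14 arrays and HOXC11 reached 8, with 4 of 4 in the parental cells and 1 of 4 when they had HGF, 1 of 4 in the clone and 2 of 4 when it had HGF.

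In HOXD, the genes HOXD1, HOXD3, HOXD4, HOXD8 and HOXD13 were well above background on no array. Only the genes from HOXD9 to HOXD12 gave signal, with HOXD9 on 14 arrays, HOXD10 on 11, HOXD11 on 3 and HOXD12 on 1. HOXD10, a gene of the limb and the lumbar spinal cord, was well above background on 3 arrays of each parental condition, on 1 of 16HBE-ex14 and on 4 of 16HBE-ex14+HGF. With at least 2 of 4 arrays required, 30 HOX genes were detected in 16HBE-WT and 28 in the same cells with HGF, and 28 in 16HBE-ex14 and 30 in the clone with HGF. The number on a single array ran from 26 to 31, with 29 to 31 on the arrays of 16HBE-ex14+HGF, on which 55.7 to 60.3% of all probes were well above background, against 49 to 57% on the others. The part of that share in the number of HOX genes was not tested.

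**Figure D1:**
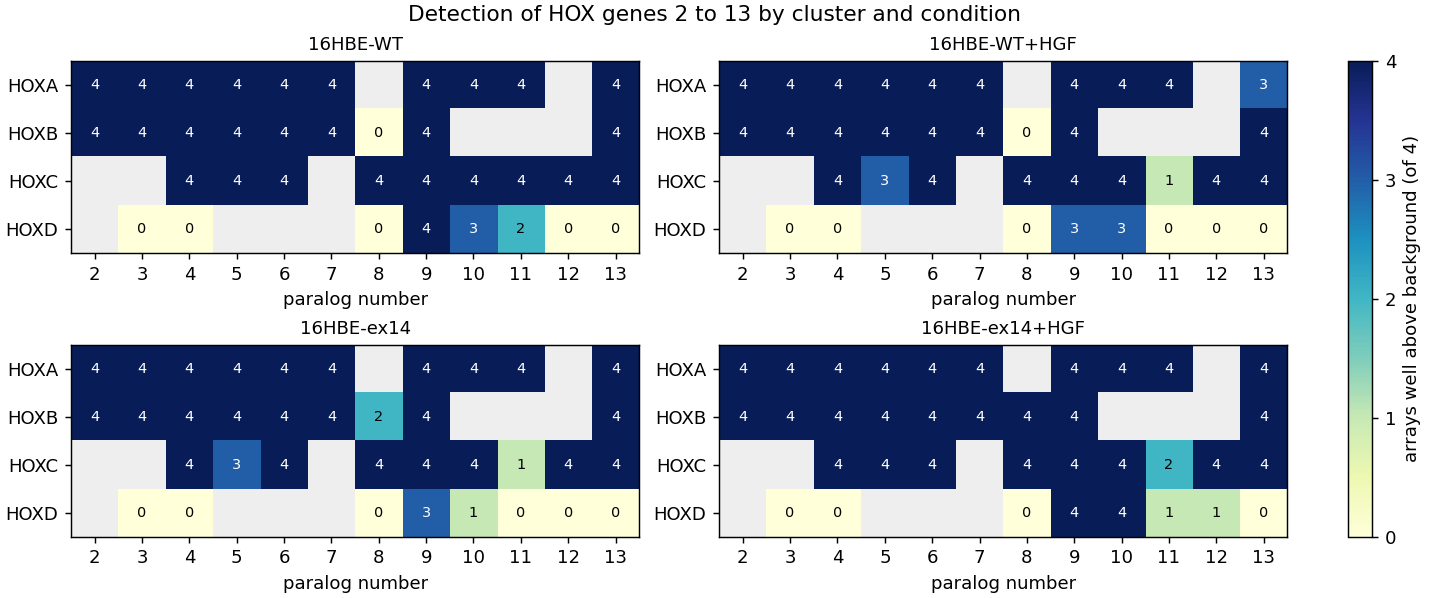
Number of arrays, of 4, on which each HOX gene of paralog number 2 to 13 was well above background, in the 4 conditions; rows are the clusters, columns the paralog numbers, grey cells have no gene, and a gene with several probes is shown by its brightest. Every gene plotted for HOXA, HOXB and HOXC has at least 1 array in each condition except, in both WT conditions, HOXB8, and in HOXD the counts above 0 fall on paralogs 9 to 12.

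Among the genes well above background on all arrays, the brightest and the dimmest probe of each cluster were taken by the mean over the 16 arrays. They were those of HOXA7 and HOXA11, HOXB6 and HOXB3, and HOXC6 and HOXC12, with HOXC6 just ahead of HOXC9 (3.31 against 3.29). HOXA7 had a mean level of 4.1 in 16HBE-WT and 4.21 after HGF, and of 4.28 in 16HBE-ex14 and 4.43 after HGF. HOXA11 had means of -2.54, -2.19, -2.37 and -1.9. HOXB6 stood at 2.54, 2.58, 2.81 and 2.89 and HOXC6 at 3.12, 3.21, 3.47 and 3.43 in the same order. No HOX probe was saturated on any array.

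The comparison of 16HBE-ex14 with 16HBE-WT asked which genes differ between the cells with exon 14 skipping and the parental cells. Without HGF, 3 HOX genes were lower in 16HBE-ex14 (HOXC12, HOXB13 and HOXB3). With HGF in both, HOXC12 was again lower. The fit also called HOXB8 higher in both media, but its probe passed the filter on dim spots only through arrays of 16HBE-ex14 cells, so that call is no independent test of a difference. The lower genes were 1.74- to 2.52-fold lower, and each called gene was in HOXB or HOXC. No HOXA or HOXD gene was called. Without HGF the 4 calls were 1 of 36 HOX probes higher, where 4.51% of all tested probes were, and 3 lower, where 4.88% were. With HGF 1 of 36 was higher, against 5.32% of all tested probes, and 1 lower, against 5.52%. The median difference over the 36 HOX probes was 0.04 without and 0.05 with HGF, next to -0.02 and 0 over all tested probes, and the median size of the difference was 0.22 and 0.2, next to 0.25 and 0.25.

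HOXC12 is a posterior HOXC gene known from the hair follicle. Its level on the 4 arrays of 16HBE-WT was -1.12, -1.54, -1.28 and -1.54, and with HGF -1.59, -1.48, -1.35 and -1.39. In 16HBE-ex14 it was -2.61, -2.23, -2.47 and -2.55, and in 16HBE-ex14+HGF -2.77, -2.5, -3.49 and -2.39. Every 16HBE-ex14 array, with or without HGF, lay below every 16HBE-WT array. The log2 difference was -1.09 ± 0.2 (SE) without HGF (adjusted p = 0.00132) and -1.33 ± 0.2 with HGF (adjusted p = 0.000252), a fold of 2.14 and 2.52. Within the first slide the differences were -1.09 and -1.1, and within the second -1.1 and -1.57. HOXC12 was called on leaving out any 1 of the 16 arrays in both comparisons. With the normexp background correction the differences were -0.58 and -0.7, and the one without HGF then missed the fold limit.

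HOXB13, the most posterior HOXB gene, lies apart from the rest of its cluster. Its 16HBE-WT arrays read 1.04, 1.13, 1.29 and 1, and those of 16HBE-WT+HGF 0.85, 0.9, 1.13 and 1.28. The 16HBE-ex14 arrays read 0.16, 0.39, 0.24 and 0.13, and those of 16HBE-ex14+HGF 0.55, 0.41, 0.29 and 0.58. The 2 genotypes did not overlap in either medium. The log2 difference was -0.88 ± 0.11 (SE, adjusted p = 0.000104, fold 1.85) without HGF. With HGF it was -0.58 ± 0.11 (adjusted p = 0.0021), and the fold, 1.5 after rounding, fell just short of the limit. Under 4 of the 16 omissions of an array (16HBE-WT+HGF replicates 1 and 2, 16HBE-ex14+HGF replicates 1 and 4) it passed, with differences of -0.61 to -0.64. Within the 2 slides the differences were -0.81 and -0.96 without HGF, and -0.4 and -0.77 with it. The probe lies on chr17:46802144-46802203.

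HOXB3, an anterior gene known from hindbrain and pharyngeal patterning, was dim but well above background on all 16 arrays. It read -3.05, -2.85, -2.45 and -2.92 in 16HBE-WT and -3.78, -3.39, -3.41 and -3.89 in 16HBE-ex14, with no overlap. The arrays with HGF were -3.02, -3.62, -3.52 and -2.8 for 16HBE-WT+HGF and -3.14, -3.39, -3.42 and -3.52 for 16HBE-ex14+HGF, and these overlapped. The log2 difference was -0.8 ± 0.19 (SE, adjusted p = 0.00885, fold 1.74) without HGF and -0.13 ± 0.19 (adjusted p = 0.713) with it. The change of the genotype difference with HGF was 0.67 (95% interval 0.1 to 1.25, adjusted p = 0.982). Within the 2 slides the differences were -0.64 and -0.96 without HGF, and 0.06 and -0.31 with it. The call without HGF was lost under E1A spike-in scaling (-0.72, adjusted p = 0.0626) and, on fold, under normexp (-0.41). The probe lies on chr17:46627302-46627361.

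HOXB8, known for its part in blood progenitors, was at the edge of detection. It was well above background on none of the 8 arrays of the parental cells, on 2 of 4 of 16HBE-ex14 and on 4 of 4 when the clone had HGF. Its probe lies on chr17:46689835-46689894. Its values were -4.56, -4.93, -4.5 and -6.04 in 16HBE-WT and -3.64, -3.91, -4.28 and -4.33 in 16HBE-ex14. With HGF they were -4.49, -4.06, -5.06 and -4.11 in 16HBE-WT+HGF and -3.29, -3.32, -3.34 and -3.77 in 16HBE-ex14+HGF. The genotypes did not overlap in either medium. A signal not well above background, as in all the parental cells, gives only an upper bound. Taking the lowest signal well above background on each array as the floor for the dim side, the mean HOXB8 level was at least 1.55-fold higher with HGF. All 4 arrays of the clone measured it there, and this bound on the means carries no interval. Without HGF 2 of 4 arrays measured it, and no fold is given. The fit's adjusted p for the measured values was 0.0424 without and 0.0336 with HGF. These p-values are no independent test, since the probe passed the filter only through arrays of 16HBE-ex14 cells. The sign of the fitted difference turned with the normexp background correction, to -0.07 and -0.1. Without HGF the adjusted p passed 0.05, reaching 0.107 at most, when any of the 4 arrays of 16HBE-ex14 was left out, or 16HBE-WT replicates 2 or 4, 16HBE-WT+HGF replicate 1, or 16HBE-ex14+HGF replicates 1, 2 or 3. With HGF it did so, reaching 0.105, without 16HBE-WT+HGF replicates 1 or 3 or 16HBE-ex14+HGF replicates 1, 2 or 3.

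**Figure D2:**
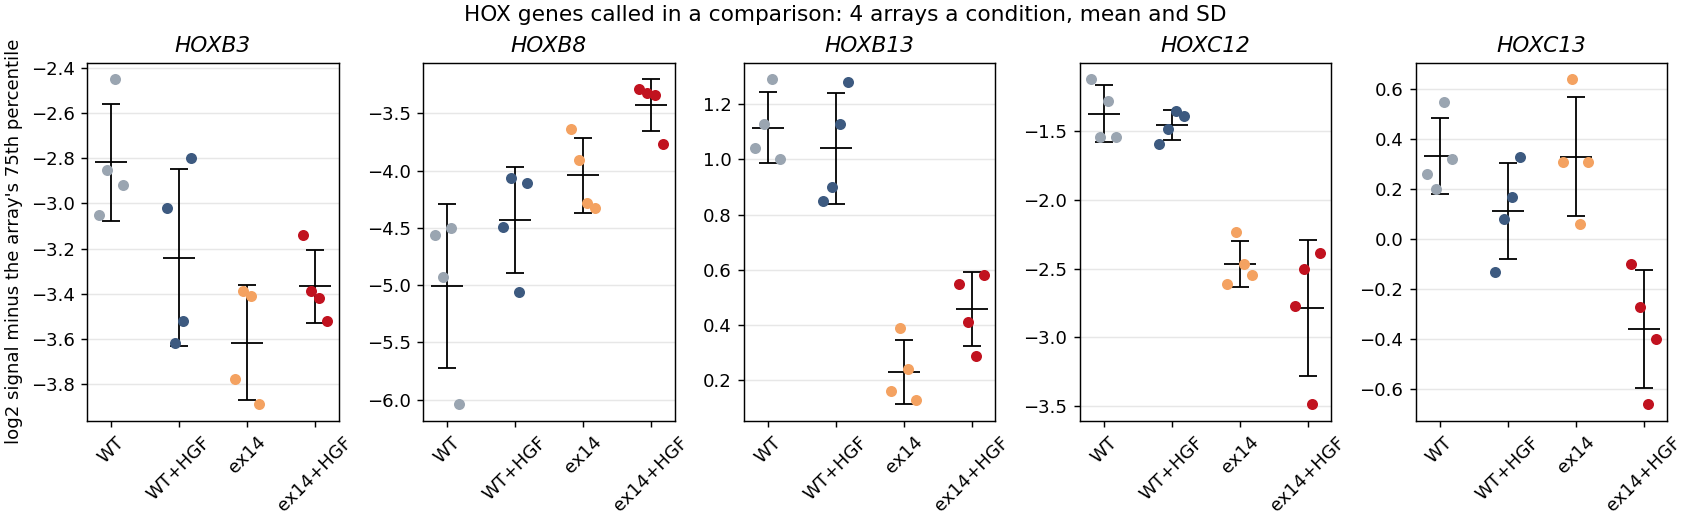
Level (log2 signal minus the array's 75th percentile) of the 5 HOX genes called in a comparison; points are single arrays, the bar and whiskers are the mean and SD of 4, and each panel has its own vertical axis. HOXC12 and HOXB13 are lower on all 8 ex14 arrays than on all 8 WT arrays, and HOXC13 is lowest in 16HBE-ex14+HGF.

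Below the fold limit, more HOX genes differed in adjusted p alone, by small amounts. Without HGF these and the called genes came to 5 probes higher (9.63% of all tested probes were) and 4 lower (8.72% of all), and with HGF to 5 higher (10.4% of all) and 4 lower (10.2% of all). The higher ones included HOXB8 in both media. It passed the filter only through arrays of 16HBE-ex14 cells, so its place among them is no independent test. In HOXC the higher genes lay in the middle of the cluster. Without HGF, some non-coding transcripts of HOXC and some genes beside the cluster were higher too, as given below. HOXC8, a gene of the thoracic region, read 0.83, 0.78, 1.14 and 0.99 in 16HBE-WT and 1.34, 1.61, 1.43 and 1.51 in 16HBE-ex14, a difference of 0.54 ± 0.12 (SE, adjusted p = 0.00521). With HGF its difference was 0.39 (adjusted p = 0.0299).

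HOXC10, whose probe covers the same recognition-helix codons as that of HOXC12 shown above, differed in the opposite direction from it. Its arrays read -0.18, -0.47, -0.07 and -0.02 in 16HBE-WT and 0.11, 0.1, 0.35 and 0.43 in 16HBE-ex14, which do not overlap, and the difference was 0.43 (adjusted p = 0.0226). With HGF it was 0.29 (adjusted p = 0.112). HOXC6 differed by 0.35 without HGF (adjusted p = 0.0393) and by 0.22 with it (adjusted p = 0.186). The adjusted p of HOXC6 without HGF rose over 0.05 in 12 of 28 alternatives and that of HOXC10 in 6 of 28, as did that of HOXC8 with HGF in 7 of 28.

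Read along HOXC from anterior to posterior, the differences without HGF were 0.04 for HOXC4, -0.23 for HOXC5, 0.35 for HOXC6, 0.54 for HOXC8, 0.23 for HOXC9 and 0.43 for HOXC10, and then -0.77 for HOXC11, -1.09 for HOXC12 and 0 for HOXC13. HOXC11, a gene of the lower limb and spine, read -3.57, -4.14, -4.21 and -3.63 in 16HBE-WT and -5.45, -4.21, -4.5 and -4.47 in 16HBE-ex14. It was well above background on 1 of these last 4 arrays. Its adjusted p was 0.0508, and with the slide as a block it was called. With HGF the same run was -0.07, -0.1, 0.22, 0.39, 0.16, 0.29, -0.59, -1.33 and -0.47. The last of these, HOXC13, had an adjusted p of 0.0361, which rose over 0.05 in 11 of 28 alternatives, and the genotypes overlapped.

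In HOXB the genes HOXB2, HOXB4 and HOXB6 had adjusted p below 0.05 with HGF, with differences of 0.36 ± 0.09, 0.53 ± 0.13 and 0.31 ± 0.1 (SE). HOXB4, known for the expansion of blood stem cells, read 0.74, 0.48, 0.48 and 0.63 in 16HBE-WT+HGF and 1.18, 1.1, 0.97 and 1.19 in 16HBE-ex14+HGF, with no overlap (adjusted p = 0.00879). HOXB5, a gene with a known part in lung branching, differed by 0.57 without HGF (adjusted p = 0.0498) and by 0.43 with it (adjusted p = 0.131). The adjusted p of HOXB5 without HGF rose over 0.05 in 18 of 28 alternatives (to 0.144 at most), and that of HOXB6 with HGF in 13 of 28 (to 0.112). HOXB7 and HOXB9 had differences between -0.18 and -0.01, none of them past the limit. The 95% interval of HOXB9 with HGF ran from -0.22 to 0.21.

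The 2 HOXB2 probes and the 2 HOXA10 probes differed in which side of the test's threshold they fell on, and in some comparisons in sign. HOXB2's dimmer probe, the homeobox one shown above, differed by 0.01 with HGF (95% interval -0.5 to 0.52, adjusted p = 0.978) where the brighter differed by 0.36 (adjusted p = 0.0121). Without HGF the dimmer differed by -0.19 (adjusted p = 0.654) and the brighter by 0.26 (adjusted p = 0.071). HOXA10, a gene of the reproductive tract and of blood cells, had a brighter probe that was 0.26 higher in 16HBE-ex14 without HGF (adjusted p = 0.58) and a dimmer one that was 0.4 lower (-0.4, adjusted p = 0.0476). With HGF the values were 0.47 (adjusted p = 0.263) and -0.39 (adjusted p = 0.0469). The adjusted p of the dimmer probe rose over 0.05 in 18 of 29 alternatives without HGF (to 0.33 at most) and in 17 of 29 with it (to 0.264). The dimmer probe lies on chr7:27211235-27211294. The brighter is annotated from chr7:27211789 to 27213023, a span wider than a 60-mer. The difference between 2 probes of a gene was not tested.

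In HOXA the brightest probes differed little between the genotypes. Over the 10 tested HOXA genes, each by its brightest probe, the difference without HGF ran from -0.17 to 0.32, with 8 above 0 (7 to 9 under the other scalings and the normexp correction), and with HGF from -0.14 to 0.47, with 9 above 0 (8 or 9). None of these had an adjusted p below 0.05, but with the slide as a block that of HOXA10 with HGF was 0.0413. HOXA9, a gene of blood progenitors and leukaemia with 4 probes, had differences between -0.21 and 0.13 in the 2 comparisons. In HOXD, HOXD9 was at -0.36 and HOXD10 at -0.71 without HGF, and the 95% interval of HOXD10 ran from -1.45 to 0.02. HOXD10 was well above background on 1 of the 4 arrays of 16HBE-ex14.

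**Figure D3:**
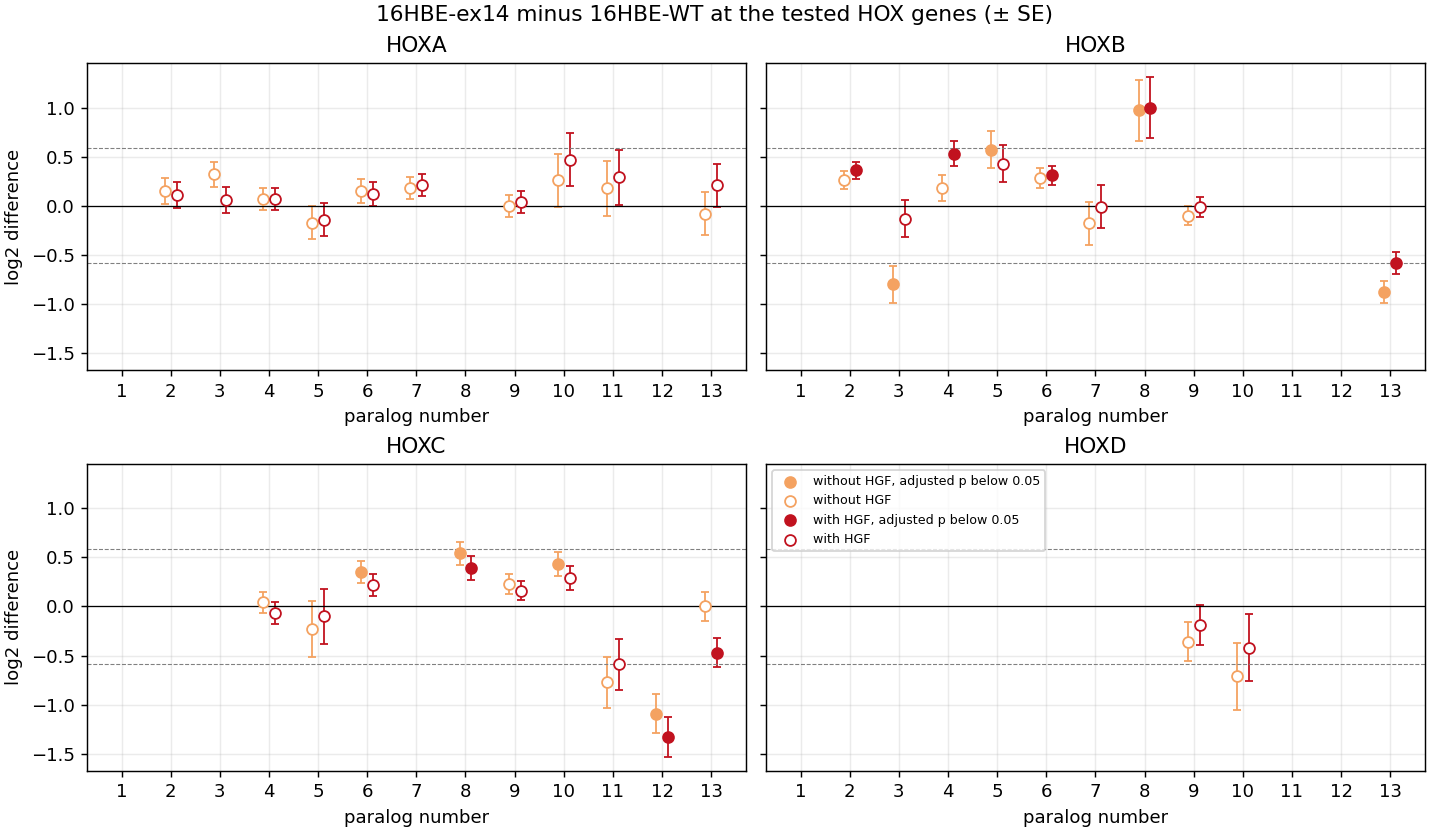
Log2 difference of 16HBE-ex14 minus 16HBE-WT (± SE) at each tested HOX gene, by cluster and paralog number, without and with HGF; filled points had adjusted p below 0.05 and the dashed lines are the 1.5-fold limit. HOXA lies between -0.17 and 0.47, HOXB8 is set against parental arrays on none of which it was well above background, and in HOXC paralogs 6 to 10 lie above 0 and 11 and 12 below it.

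The comparison with and without HGF in 16HBE-ex14 asked what 24 h of ligand change in cells with exon 14 skipping. One HOX gene was called, HOXC13, which was lower with HGF. That is 1 of 36 HOX probes, where 0.957% of all tested probes were called lower. HOXC13 is the most posterior gene of its cluster and is known for controlling hair keratin genes.

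HOXC13 read 0.31, 0.64, 0.06 and 0.31 on the 16HBE-ex14 arrays and -0.1, -0.27, -0.66 and -0.4 on those of 16HBE-ex14+HGF, with no overlap. In 16HBE-WT the arrays were 0.26, 0.2, 0.55 and 0.32, and with HGF -0.13, 0.08, 0.17 and 0.33, which overlapped. The log2 difference with HGF was -0.69 ± 0.15 (SE, adjusted p = 0.0206, fold 1.61) in 16HBE-ex14 and -0.22 (95% interval -0.54 to 0.09, adjusted p = 1) in 16HBE-WT. The HGF responses of the 2 genotypes differed by -0.47 (95% interval -0.91 to -0.02, adjusted p = 1), so a difference between the genotypes was not shown for this gene. The call was lost without 16HBE-ex14 replicate 2 (-0.58, adjusted p = 0.0774) or replicate 4 (-0.7, adjusted p = 0.0622), and without 16HBE-ex14+HGF replicate 3 (-0.59, adjusted p = 0.0797) or replicate 4 (-0.67, adjusted p = 0.0647). It was also lost with E1A spike-in scaling (-0.76, adjusted p = 0.0602), with only the arrays of the 2 conditions in the fit (adjusted p = 0.101) and, on fold, with normexp (-0.53). Within the 2 slides the differences in 16HBE-ex14 were -0.66 and -0.72. The probe lies on chr12:54340034-54340093.

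The other HOXC genes had differences of -0.32 to 0.26 with HGF in 16HBE-ex14, with HOXC12 at -0.32 (95% interval -0.74 to 0.1, adjusted p = 0.51). All 9 tested HOXB genes had a positive difference, with a median of 0.25 next to 0.05 over all tested probes. The largest was that of HOXB8 (0.61), which met the filter on dim spots only with the 16HBE-ex14+HGF arrays. Its sign is therefore no independent part of the count. Among all tested probes 59.2% were positive. The count of 9 became 6 with median scaling and 8 with E1A spike-in scaling, under which 32.7% and 46.9% of all tested probes were positive. HOXB4 was at 0.44 (adjusted p = 0.0921), and none of the 9 had an adjusted p below 0.05. In HOXA 7 of 10 were positive, and 3 of 10 with median scaling, which moved all probes.

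In 16HBE-WT cells no HOX gene was called with HGF, and no probe at all by limma (0% of all tested probes). At an unadjusted p below 0.05 there was 1 HOX probe, that of HOXB3, and 1694 of all 34599 probes. Leaving out HOXB8, which was not well above background in either condition, the HOX differences ran from -0.42, for HOXB3 (95% interval -0.83 to -0.02), to 0.36, for HOXA11 (95% interval -0.25 to 0.97). For HOXC12 the interval was -0.5 to 0.34 and for HOXB13 it was -0.32 to 0.17. The test of whether HGF acted differently in the 2 genotypes called nothing either among the HOX probes or elsewhere (0% of all tested probes). At an unadjusted p below 0.05 it held 2 HOX probes, those of HOXB3 and HOXC13, and 1600 of all.

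**Figure D4:**
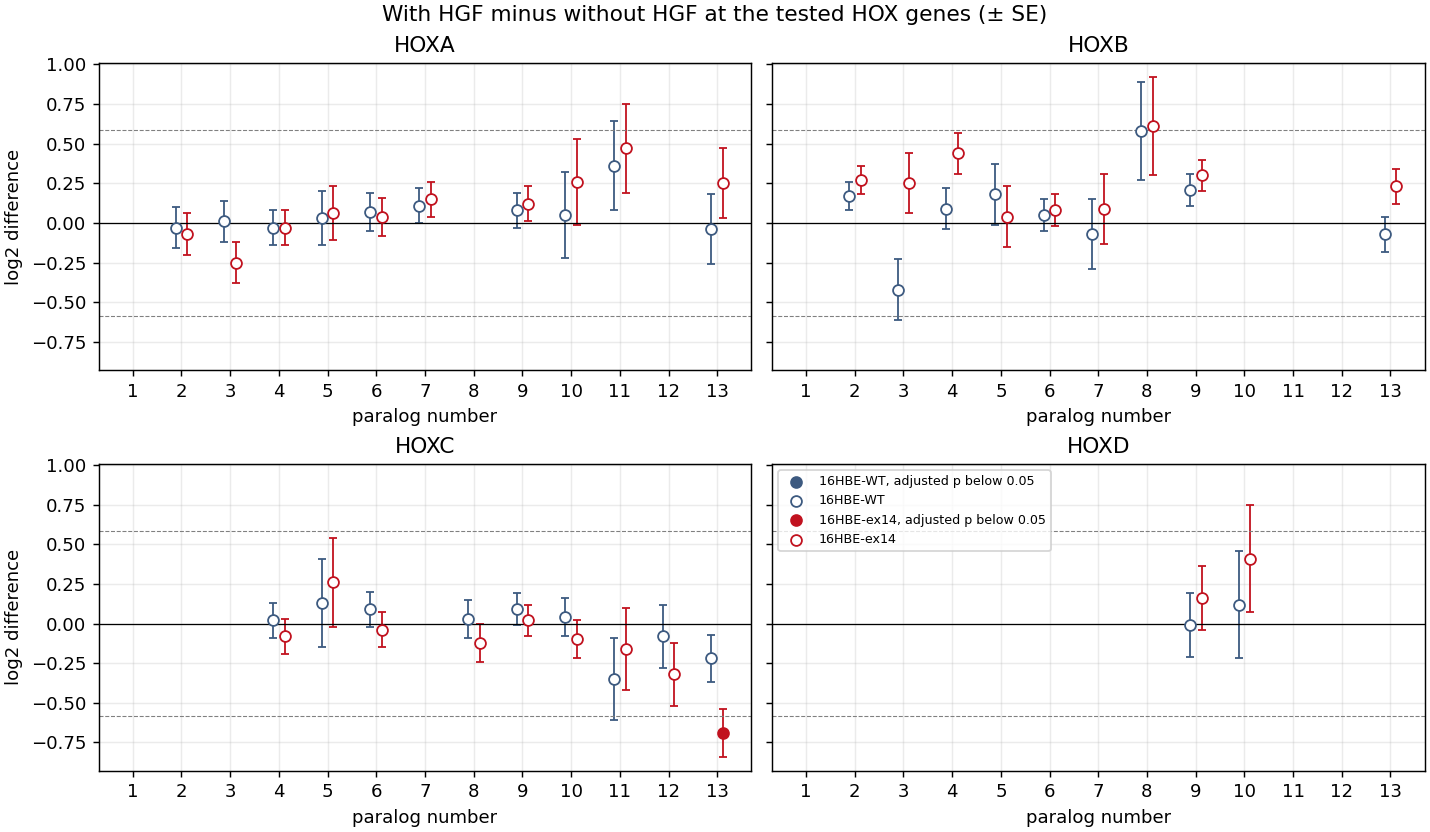
Log2 difference with HGF minus without (± SE) at each tested HOX gene, by cluster and paralog number, in 16HBE-WT and 16HBE-ex14; filled points had adjusted p below 0.05 and dashed lines are the 1.5-fold limit. HOXC13 in 16HBE-ex14, at -0.69, is the one filled point.

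The clusters also hold transcripts that are not HOX genes by name, chiefly long non-coding RNAs such as HOTAIR and HOTAIRM1. Of 22 such names listed, 16 were on the array and 12 were tested. The 4 of HOXD or of the 5′ end of HOXA (HAGLR, HAGLROS, HOXD-AS2 and HOTTIP) were well above background on no array. The 6 microRNA names of the clusters had no probe.

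HOXB-AS1 and HOXC13-AS were the called ones. Between the genotypes, 4.51% of all tested probes were called higher without HGF and 5.32% with it. With HGF in 16HBE-ex14, 362 of all 34599 tested probes were called higher and 331 lower. HOXB-AS1, from the anterior part of HOXB, had a level of -0.6 ± 0.15 in 16HBE-WT and -0.23 ± 0.07 after HGF, and of 0.21 ± 0.26 in 16HBE-ex14 and 0.92 ± 0.2 after HGF (SD, n = 4). It was higher in 16HBE-ex14 by 0.8 without HGF (adjusted p = 0.000834) and by 1.15 with HGF (adjusted p = 4.13e-05), and higher with HGF in 16HBE-ex14 by 0.71 (adjusted p = 0.0105). HOXC13-AS, the antisense partner of HOXC13 by name, fell in the same comparison as HOXC13. It stood at 1.64 ± 0.22 in 16HBE-ex14 and 1 ± 0.18 after HGF, a difference of -0.63 (adjusted p = 0.0116), and its difference in 16HBE-WT was -0.19 (adjusted p = 1). HOTAIR, which lies between HOXC11 and HOXC12, was not called in any comparison and had a genotype difference of -0.24 without HGF (adjusted p = 0.324) and -0.01 with it (adjusted p = 0.966). Below the fold limit, HOXC-AS1 (0.57), HOXC-AS3 (0.57) and HOXA10-AS (0.31) were higher in 16HBE-ex14 without HGF, with adjusted p of 0.0035 to 0.024. By adjusted p alone, 9.63% of all tested probes were. With HGF their differences were 0.2, 0.31 and -0.03, with adjusted p of 0.0774 to 0.861. HOTAIRM1 was then lower (-0.37, adjusted p = 0.0454), as were 10.2% of all tested probes. HOXC-AS2 and HOXC13-AS differed by -0.33 and 0.1 without HGF (adjusted p of 0.5 and 0.629).

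**Figure D5:**
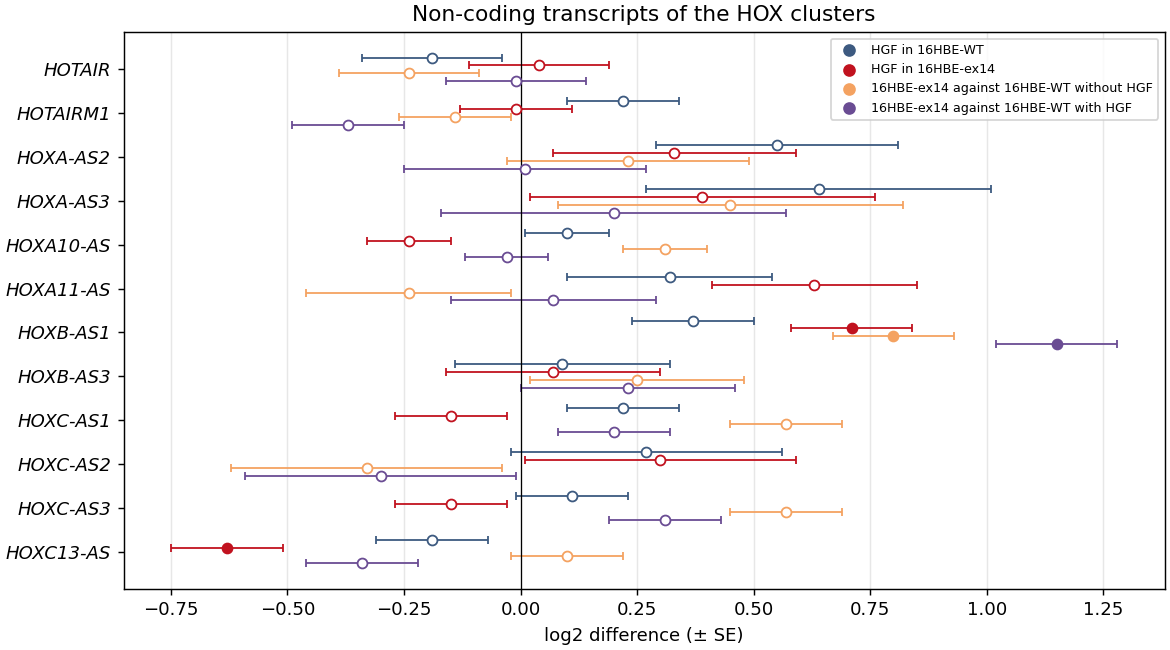
Log2 difference (± SE) of the 12 tested non-coding transcripts of the HOX clusters in 4 comparisons; filled points were called (adjusted p below 0.05 and fold over 1.5). HOXB-AS1 is filled in 3 comparisons, between 0.71 and 1.15, and HOXC13-AS in 1, at -0.63.

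Of the genes just outside the clusters, 6 were tested beside HOXA, 5 beside HOXB, 6 beside HOXC and 4 beside HOXD, and 2 were called in a comparison. Beside HOXC the median genotype difference was 0.28 without and 0.26 with HGF, next to -0.02 and 0 over all tested probes. Below the fold limit, CBX5 (0.46), HNRNPA1 (0.38) and SMUG1 (0.36) were higher without HGF, with adjusted p of 0.0149 to 0.0428. By adjusted p alone, 9.63% of all tested probes were. COPZ1 was at 0.2 (adjusted p = 0.129) and CALCOCO1 at -0.02. With HGF, SMUG1 (0.4) and COPZ1 (0.33) had adjusted p below 0.05. Between the genotypes, 4.51% of all tested probes were called higher and 4.88% lower without HGF, and 5.32% and 5.52% with it, and these shares are the background of this and the following lists. NFE2, a blood-lineage transcription factor gene beside HOXC, had a level of 0.28 ± 0.08 in 16HBE-WT and -1.48 ± 0.23 in 16HBE-ex14 (SD, n = 4), a difference of -1.76 (adjusted p = 2.04e-06). With HGF its difference was -2.15 (adjusted p = 2.66e-07), and its difference with HGF in 16HBE-ex14 was -0.67 (adjusted p = 0.0203). SKAP1, which codes for an adaptor protein beside HOXB, was 0.78 higher in 16HBE-ex14+HGF than in 16HBE-WT+HGF (adjusted p = 0.00295) and 0.64 higher with HGF in 16HBE-ex14 (adjusted p = 0.0465).

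Of the TALE proteins, which bind DNA together with HOX proteins, 8 of 9 genes were tested and only PBX4 was called, at -0.81 in 16HBE-ex14+HGF against 16HBE-WT+HGF (adjusted p = 0.00278), where 5.52% of all tested probes were called lower. The Polycomb genes, whose products keep silent HOX genes off, were all 25 well above background on all 16 arrays. Without HGF 3 were higher in 16HBE-ex14 (4.51% of all tested probes were) and 1 lower (4.88% of all), with a list median of 0.06 next to -0.02 over all tested probes. The higher ones were PCGF5 (0.96, adjusted p = 6.41e-05), CBX6 (0.88, adjusted p = 5.11e-06) and PHC1 (0.71, adjusted p = 0.000552), and the lower was CBX2 (-0.7, adjusted p = 0.00314). With HGF the same 4 were called in the same directions and MTF2 was lower too (-0.6, adjusted p = 0.000203), next to 5.32% higher and 5.52% lower of all tested probes.

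The next list of 12 held genes of Trithorax proteins and H3K27 demethylases, which oppose Polycomb, and of other chromatin regulators. Of these DPY30 alone was called, with a difference of -0.82 without HGF (adjusted p = 2.09e-05) and -0.78 with it (adjusted p = 2.64e-05). Of all tested probes 4.88% and 5.52% were called lower in these comparisons. Among 14 tested genes of retinoic acid and CDX input to HOX genes, 2 were higher in 16HBE-ex14 in both media, where 4.51% and 5.32% of all tested probes were called higher. ALDH1A1, an enzyme that makes retinoic acid, had a level of 1.71 ± 0.4 in 16HBE-WT and 4.46 ± 0.07 in 16HBE-ex14 (SD, n = 4), a difference of 2.75 (adjusted p = 4.05e-08), and of 2.07 with HGF (adjusted p = 6.51e-07). With HGF it was lower in 16HBE-ex14, by a difference of -1.28 (adjusted p = 0.00101). CRABP2, which carries retinoic acid to its receptors, was higher by 1.56 without HGF (adjusted p = 5.44e-06) and 1.08 with it (adjusted p = 9.83e-05). Whether these genes bear on the HOX differences was not tested.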

How the data were processed

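One-colour Agilent arrays with 60-base probes were read in 4 conditions of 4 arrays, on 2 slides. The intensity deposited by the authors is the processed signal of Feature Extraction 10.7.3.1. Per the file headers it is linear and spatially detrended, with surrogates for very dim spots, and the subtracted background equalled the detrending surface at 100% of spots. The authors' scaling between arrays is not given in the sources used here.

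Spots with an outlier mark were left out, and spots of a probe were averaged. The log2 intensity minus each array's 75th percentile was fitted with limma 3.58.1 in R 4.3.3 over all 16 arrays, with 1 mean per condition, for probes well above background on at least 4 arrays. The Benjamini-Hochberg adjustment ran over all tested probes of a contrast. The fit was tested on simulated data. A gene is given by its probe of highest mean signal. Values on every array are given for each HOX gene called in a contrast, and genes of other lists are named where called. Non-coding transcripts of the clusters and genes beside HOXC are also named where only the adjusted p passed. The HOX genes and the gene lists were chosen with earlier results of these data known. The number of arrays limits the precision. Alternatives covered background, scaling, filter, blocks, prior, adjustment and the omission of each array. A HOX gene is in the counts but its result is not reported here.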

Additional observations from a re-analysis of the deposited data

Results flagged for a closer look

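In 16HBE-ex14+HGF, replicate 4 had a HOXB8 level of -3.77, apart from the other 3 arrays, the nearest of which was at -3.34. The gap made up 0.911 of the range of the 4 arrays, above Dixon's 95% critical value for 4 values. Of 20 sets of 4 arrays checked (5 genes in 4 conditions) it was the 1 that passed, and chance passes about 5% of such sets.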

How the results depend on the processing

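HOXC12 and HOXB13 were the least dependent on the processing: in all 28 alternatives with a test, both kept their direction and an adjusted p below 0.05 in the genotype comparisons without and with HGF. The 4 HOX probes called between the genotypes without HGF became 1 with the normexp background correction and 9 with no fold limit, and 3 to 7 on leaving out 1 array (7 without 16HBE-WT replicate 3). With HGF the 2 became 1 with normexp, with the stricter filter and with adjustment over the 5 contrasts together, 9 with no fold limit, and 1 to 3 on leaving out 1 array (1 without 16HBE-WT+HGF replicate 3 or 16HBE-ex14+HGF replicates 2 or 3). For HGF in 16HBE-ex14 the 1 became 0 with normexp, with E1A spike-in scaling and with only the compared arrays in the fit, and 0 to 1 on leaving out 1 array. For HGF in 16HBE-WT and for the difference of the HGF responses the count was 0 in every setting run. HOXB8 turned to -0.07 without and -0.1 with HGF under normexp, and the cause was not tested. Normexp starts from the mean spot signal, corrects it for the measured background by a model and adds a constant. HOXA10 gave 0.26 and 0.47 with its brighter probe against -0.4 and -0.39 with its dimmer one. The counts of detected HOX genes stayed within 1.5 times under every other number of arrays required.

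With the replicate number as a replicate block the counts of HOX probes called were 1, 0, 4, 2 and 0, for HGF in 16HBE-ex14, HGF in 16HBE-WT, genotype without HGF, genotype with HGF and the difference. The numbers share only a slide: deviations of same-numbered arrays correlated at 0.028 to 0.323, and 3 of 16 arrays were closest to their own number. With the slide as a block the genotype count without HGF was 5, and HOXC11 was added.

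Over all probes, the calls for HGF in 16HBE-ex14 were 693, with a range of 246 to 977 over the alternatives that keep the fold limit and 998 without that limit. Those between the genotypes were 3252 (1489 to 3676, and 6349 with no fold limit) without HGF and 3749 (1814 to 5309, and 7125) with HGF. For HGF in 16HBE-WT and the difference they were at most 85 and 162. Median scaling moved the median of all probes from 0.05 to -0.11 for HGF in 16HBE-ex14, and from -0.02 to 0.12 for the genotypes without HGF. The higher calls were then 176 of 730 and 2640 of 3676, against 362 of 693 and 1562 of 3252, and with E1A spike-in scaling 199 of 479 and 2035 of 3168. With HGF the higher calls were 2530 of 3835 with median scaling against 1839 of 3749. Normexp moved the median to -0.13 and -0.14 between the genotypes. HOX probes near the background floor, those of HOXB8, HOXC11 and HOXD, allow only weak statements. In 16HBE-ex14 the probes of HOXB3 (-3.62), HOXA13 (-3.65) and HOXC5 (-3.52) were about as dim as that of HOXD9 (-3.61).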
